A study of Homo sapiens with 62 samples.

Results

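The kallikrein-related peptidases KLK5, KLK6, KLK7, KLK8, KLK10 and KLK11 were followed as a set of 6 genes out of the 29794 genes counted. They were chosen by name, with earlier results of these data known, and for the difference between 2 cell lines in the response of KLK11 to loss of the transcription factor KLF5. That response, and the response of the other members to the same treatment, is therefore given as a description without a test. SLAM-seq was used to measure new RNA in AsPC-1 and T3M-4, 2 human cell lines from pancreatic ductal adenocarcinoma that stand for its classical (AsPC-1) and basal-like (T3M-4) subtypes. Cells took up 4-thiouridine (4sU), which pairs differently after alkylation, so T>C conversions mark reads from RNA that was made while the label was present.

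All groups carried the same KLF5 allele. Endogenous KLF5 had been knocked out with Cas9 and an sgRNA, and a FLAG-tagged KLF5 cDNA fused to the FKBP12(F36V) degron was expressed in its place from a lentivirus, in drug-selected pools of cells rather than single clones. The degrader dTAGv-1 removes such a fusion protein, and dTAGv-1-NEG is its inactive analogue (dTAG and NEG below, both 4 h). The other agents were CB-6644, which blocks the ATPase activity of RUVBL1/2, and NVP-2, which blocks the kinase CDK9. Each was set against the solvent DMSO after 4 h, and in AsPC-1 CB-6644 was also given for 12 h. The 4 h libraries of AsPC-1 numbered 10 for dTAG, 10 for NEG, 5 for CB-6644, 5 for DMSO and 4 for NVP-2, and its 12 h libraries 4 for CB-6644 and 4 for DMSO. Every T3M-4 group was at 4 h and held 4 libraries. The degrader acts on the protein, so RNA counts of KLF5 do not check the labels. The first digit of a replicate number names an experiment, with 3 dTAG experiments in AsPC-1 and 2 in T3M-4. Libraries within an experiment are described as biological replicates, without saying how the cultures were kept apart, and p-values measure the spread between libraries.

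Kallikrein-related peptidases are secreted serine proteases made as inactive zymogens, and their genes stand side by side in 1 cluster on chromosome 19. In skin they act as a cascade: KLK5, a trypsin-like enzyme, activates KLK7, a chymotrypsin-like enzyme, and both cut the desmosomal proteins that hold corneocytes together, under control of the inhibitor LEKTI encoded by SPINK5. KLK6 and KLK8 (neuropsin) are trypsin-like and were first studied in the nervous system. KLK10 and KLK11 are expressed in many glandular and squamous epithelia, and trypsin-like members can cleave protease-activated receptors. KLF5 is a zinc-finger factor of epithelia that binds GC-rich and CACCC-type sequences.

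The 6 genes lie on the minus strand of chromosome 19 (GRCh38, GENCODE v44), within a 265.1 kb stretch that holds 15 KLK genes. KLK5 (ENSG00000167754.13) spans chr19:50943303-50953093, KLK6 (ENSG00000167755.15) chr19:50958631-50969673, KLK7 (ENSG00000169035.12) chr19:50976468-50984099 and KLK8 (ENSG00000129455.16) chr19:50996007-51002711. KLK10 (ENSG00000129451.12) spans chr19:51012739-51020175 and KLK11 (ENSG00000167757.14) chr19:51022216-51028039, so the 2 genes on which the results turn are immediate neighbours. Reads were counted over annotated 3′UTR exons. The last 3′UTR exon is at chr19:51012739-51014802 in KLK10 and at chr19:51022216-51022697 in KLK11. The 3′ end of KLK8 overlaps a readthrough gene on the same strand, and the ends of KLK6, KLK7, KLK8 and KLK10 overlap antisense genes, so those counts are uncertain to that extent. Some reads entered a gene's total more than once, since all counts of KLK5 were multiples of 3 and 94.4% of the T>C counts of KLK6 above 0 were multiples of 4. Levels are therefore compared between libraries and never between genes.

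Promoter windows of KLK10 and KLK11 are shown because these were the 2 members with the lowest T>C reads relative to their controls after dTAG in T3M-4. The motif CCNCNCCC, a short form of the sequences KLF factors bind, was searched on both strands in RefSeq promoters of GRCh38.p14, each from 250 bases before to 50 after a start site. Matches in the orientation of the gene are shown in capitals, read on its minus strand.
KLK10, chr19:51019973-51020000: ggacgtgaacCCTCTCCCcgcgcctggg
KLK10, chr19:51019852-51019879: tattccagggCCCCTCCCagagcaggaa
KLK10, chr19:51019813-51019840: ggagtgccagCCTCACCCacggtacaat
KLK11, chr19:51026706-51026733: ctcacacacaCCCCGCCCcggggcatta
KLK11, chr19:51026647-51026674: ccgcccagggCCGCCCCCctgccagccc
Both KLK11 matches were in the downstream of its 2 listed promoters, chr19:51026567-51026866, and the upstream one, chr19:51027597-51027896, held 0. The motif was in 8 of 9 promoters listed for the members (KLK8 was not among the entries) and in 19727 of 35116 promoters overall (56.2%), with a median GC content of 63.7% in the members' promoters and 58.7% overall. A match is a description of letters, not a binding site.

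The AsPC-1 libraries held 82676553 to 200298262 reads, of which 2240998 to 18311982 carried T>C conversions. The T3M-4 libraries held 111132257 to 244524608 reads and 3714015 to 27982537 T>C reads. In NVP-2 libraries T>C reads were 1.35 to 1.91% of all reads in AsPC-1 and 1.80 to 2.80% in T3M-4, against 7.58 to 10.6% and 11.0 to 14.3% in the other libraries. Among control libraries, 6 of 10 classical markers were higher in every AsPC-1 library than in every T3M-4 library, and 7 of 8 basal-like markers were higher in every T3M-4 library. The remaining basal-like marker, the mesenchymal filament gene VIM, went fully the other way, at 1000 to 2946 CPM in AsPC-1 and 2.86 to 4.79 CPM in T3M-4. A clustering of the AsPC-1 libraries on 500 genes other than the KLK genes gave sets of 16, 17 and 8 libraries (A, B and C), and set C was exactly experiment 2 of the dTAG, NEG, CB-6644 and DMSO 4 h groups. All levels below are counts scaled by TMM to a common library size (CPM), of T>C reads or of all reads. In bulk RNA, fewer cells that express a gene and less RNA per cell cannot be told apart.

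KLK10 and KLK11 were expressed in both lines, and KLK8 was mainly a T3M-4 gene. On the all-reads scale, KLK8 had a median of 158 CPM over the T3M-4 controls (NEG and DMSO) and 2.99 CPM over the AsPC-1 controls, a 52.7-fold ratio with no overlap of libraries. KLK7 had control medians of 16.5 CPM in T3M-4 and 1.88 CPM in AsPC-1. Its ranges in the lines overlapped only through the AsPC-1 libraries of experiment 2, described next. KLK10 had medians of 252 CPM in T3M-4 and 285 CPM in AsPC-1, and KLK11 118 and 146 CPM, so neither separated the lines. KLK5 stayed under 2 CPM of all reads in every T3M-4 library, with a highest value of 1.93.

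Within AsPC-1, the libraries of set C, which are those of experiment 2 without NVP-2, stood apart in KLK5, KLK6, KLK7 and KLK8. On the all-reads scale the medians of sets C, A and B were 5.62, 0.214 and 0.0974 CPM for KLK5, 26.4, 1.98 and 0.842 CPM for KLK7 and 14.7, 3.74 and 1.79 CPM for KLK8. KLK6, a trypsin-like member, had 22.6, 8.14 and 2.41 CPM. For each of these 4 genes every library of set C lay above every library of sets A and B. The sets were clustered on other genes of the same libraries, and the share of all genes separated in this way was not counted. KLK10, with medians of 373, 188 and 322 CPM, and KLK11, with 138, 127 and 149 CPM, overlapped between the sets. For dTAG and for CB-6644 at 4 h, the treated libraries of experiment 2 had controls in the same experiment. The NVP-2 libraries lay in sets A and B only, also those numbered 2.1 and 2.2, which were in set B, while 2 of their DMSO controls lay in set C. Drug and set are therefore partly mixed in that comparison. After dTAG, KLK10 and KLK11 are given by experiment, and KLK10 also without experiment 2. KLK6, KLK7 and KLK8 after dTAG in AsPC-1 are given only over all experiments together.

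**Figure D1:**
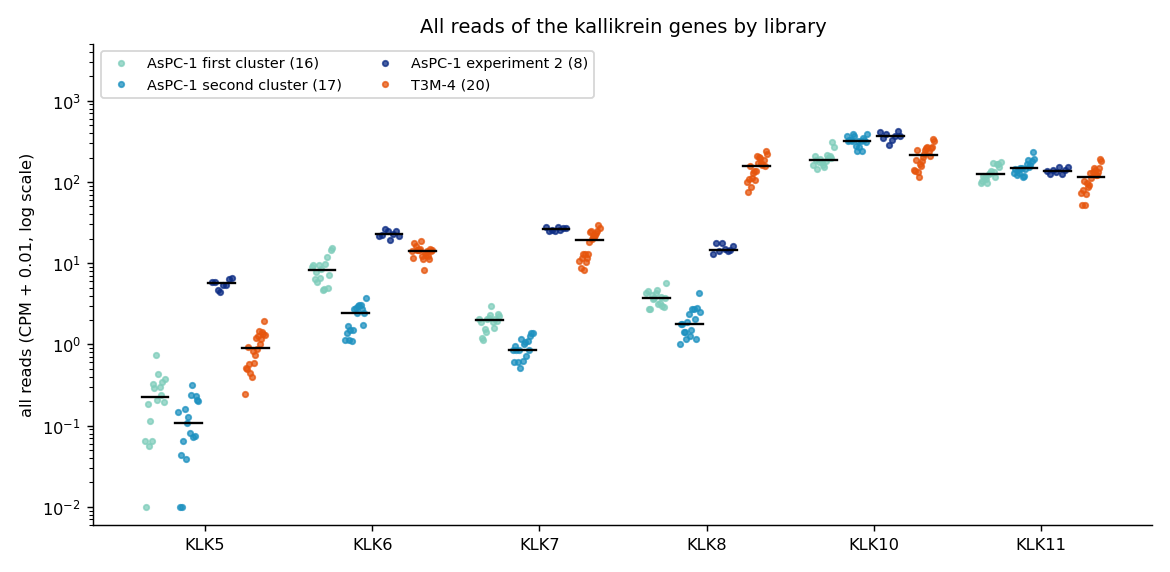
All reads (CPM + 0.01, log scale on the vertical axis) of the 6 members along the horizontal axis, 1 point per library with a usable column and bars at the median. Each gene has 4 columns of points, the first cluster (set A, 16), second cluster (set B, 17) and experiment 2 without NVP-2 (set C, 8) of AsPC-1 and the 20 T3M-4 libraries. KLK8 lies at 75 CPM or more in every T3M-4 library and at 17.9 CPM or less in every AsPC-1 library, and KLK5, KLK6, KLK7 and KLK8 split in AsPC-1 by set of libraries.

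Loss of KLF5 was compared with the inactive analogue to ask which new transcripts depend on the factor. In T3M-4, T>C reads of KLK11 were 66.3, 49.1, 69.4 and 97.9 CPM in the NEG libraries 1.1, 1.2, 2.1 and 2.2, and 4.39, 9.27, 15.2 and 17.4 CPM in the dTAG libraries of the same numbers. The highest dTAG library was below the lowest NEG library in both experiments. The log2 fold change was −2.62 (SE 0.40), or 0.163 of the NEG level, against a median of 0.01 over all genes. T>C reads of KLK10 were 79.1, 78.6, 144 and 136 CPM in NEG and 16.8, 18.2, 27.6 and 35.9 CPM in dTAG, again without overlap, with a log2 fold change of −2.16 (SE 0.31), or 0.224 of the NEG level. In 3.69% of the 13424 genes tested all T3M-4 dTAG libraries were below all NEG libraries on this scale. KLK10 and KLK11 were the 2 of 5 tested members among them, and the contrast helped to choose them, so nothing is read from that count.

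The remaining members overlapped between dTAG and NEG in T3M-4. T>C reads of KLK6 were 9.0, 2.15, 2.96 and 9.81 CPM in NEG and 2.93, 2.28, 0.941 and 0.187 CPM in dTAG, with a log2 fold change of −1.91 (SE 0.76) that was −1.09 in experiment 1 and −3.48 in experiment 2. KLK8 had 33.2, 38, 38.6 and 21.2 CPM in NEG and 18.3, 18.8, 17.4 and 29.7 CPM in dTAG. Its log2 fold change was −0.65 (SE 0.26), with −0.93 in experiment 1 and −0.34 in experiment 2. KLK7 had 4.94, 4.21, 12.1 and 10.4 CPM in NEG and 1.77, 3.58, 7.76 and 6.92 CPM in dTAG, lower in each pair of the same number, with a log2 fold change of −0.66 (SE 0.50). KLK5 was listed at 0 T>C reads in all 4 NEG libraries and had a T>C count of 3 in 1 dTAG library. That is the smallest count above 0 that KLK5 can have, since its counts were multiples of 3. KLK5 did not pass the filter on low counts.

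In AsPC-1, KLK10 was also lower after dTAG. Its T>C reads had a lowest, median and highest value of 62.5, 123 and 190.0 CPM over the 10 NEG libraries and of 28.8, 40.3 and 80.4 CPM over the 10 dTAG libraries, so the groups overlapped. Within each set of libraries they did not: KLK10 was 28.8 to 45.1 CPM against 62.5 to 77.2 CPM in set A, 34.4 to 51.8 against 121 to 190.0 CPM in set B, and 75.5 to 80.4 against 126 to 146 CPM in set C. The sets were found in these same data, and set C held 2 dTAG and 2 NEG libraries. The share of all genes without overlap within the sets was not counted, so nothing is read from this separation. The dTAG library 3.1 has no usable all-reads column and belongs to no set. The log2 fold change of KLK10 was −1.33 (SE 0.24) against a median of 0.03 over all genes, and it was −1.17 in experiment 1, −0.77 in experiment 2 and −1.99 in experiment 3. In batch 1 alone (experiments 1 and 2) it was −1.0, and without experiment 2 it was −1.55.

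KLK11 differed between the lines. In AsPC-1 its T>C reads had a lowest, median and highest value of 42.8, 78.1 and 115 CPM in NEG and of 37.8, 55.9 and 93.7 CPM in dTAG, with wide overlap. The log2 fold change was −0.35 (SE 0.18), with −0.24 in experiment 1, 0.03 in experiment 2 and −0.62 in experiment 3. The log2 fold change in T3M-4 less that in AsPC-1 was −2.26 (SE 0.39) for KLK11, so the dTAG-to-NEG ratio of KLK11 in T3M-4 was 0.209 of that in AsPC-1. For its neighbour KLK10 the same difference was −0.81 (SE 0.43). The line difference of KLK11 is the value for which the genes were chosen and carries no test here.

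KLK6, KLK7 and KLK8 gave wide errors in AsPC-1. Of KLK6, T>C reads were 0 to 8.46 CPM in NEG and 0 to 6.15 CPM in dTAG, with a log2 fold change of −0.78 (SE 0.76). KLK7 gave −0.69 (SE 0.92) and KLK8 0.36 (SE 0.52). KLK5 had T>C reads only in experiment 2 of these groups, at 1.88 and 2.06 CPM in NEG and 0.989 and 1.35 CPM in dTAG, and did not pass the filter. In AsPC-1, all 10 dTAG libraries were below all 10 NEG libraries in 0.453% of 11696 genes, and 0 members were among these. With so few members tested at that rate, nothing is read from the 0.

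**Figure D2:**
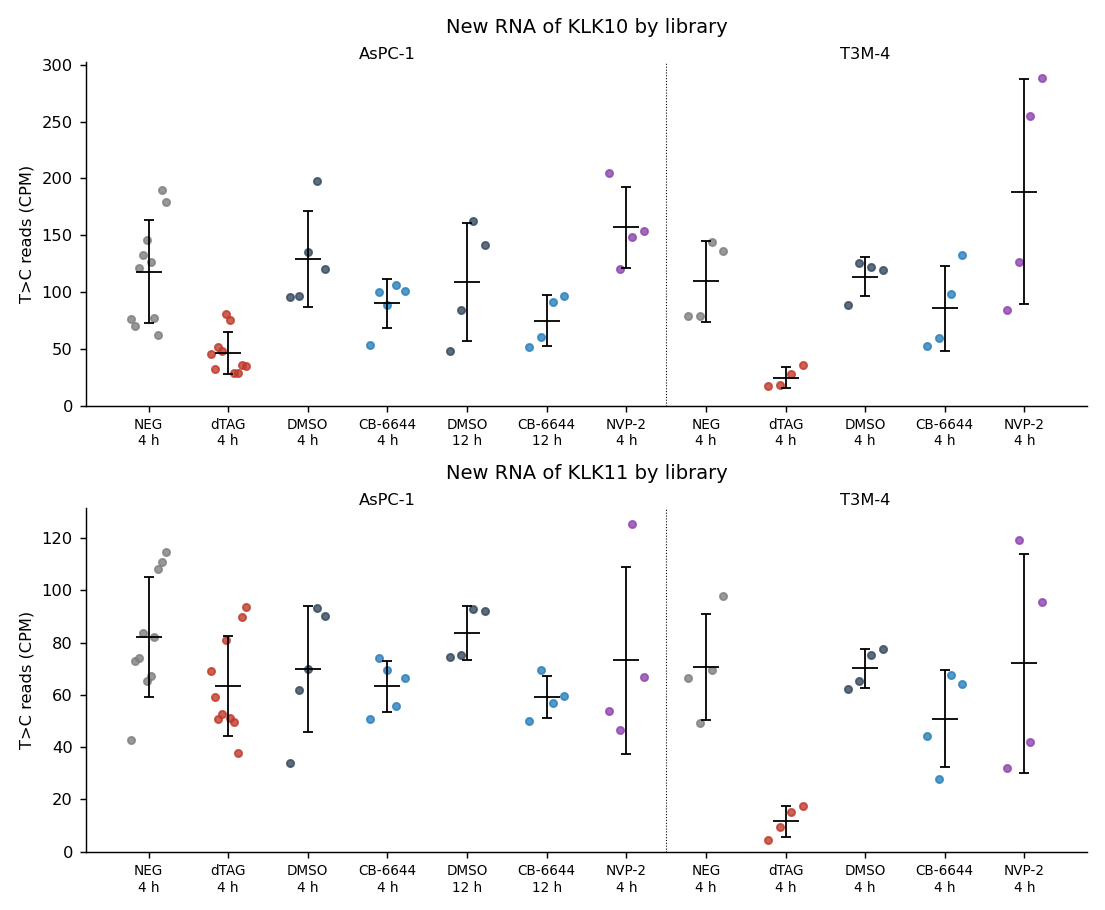
T>C reads (CPM, vertical axis) of KLK10 (top) and KLK11 (bottom) in the 12 groups along the horizontal axis, AsPC-1 left and T3M-4 right of the dotted line, with 1 point per library, a bar at the group mean and error bars of 1 SD. The 4 T3M-4 dTAG libraries of KLK11 sit between 4.39 and 17.4 CPM, below the 4 NEG libraries at 49.1 to 97.9 CPM, while dTAG and NEG of KLK11 overlap in AsPC-1.

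The labelled share, the percentage of a gene's reads in a library that carry T>C conversions, relates new RNA to the RNA already present. In T3M-4 the labelled share of KLK11 was 8.79, 7.36, 5.85 and 7.34% in NEG and 1.12, 1.82, 1.54 and 1.63% in dTAG. That of KLK10 was 6.10, 6.42, 6.26 and 5.6% in NEG and 1.68, 2.18, 1.4 and 1.94% in dTAG. KLK7 had 4.61 to 6.15% in NEG and 2.79 to 4.55% in dTAG. These 3 members did not overlap between dTAG and NEG, as all dTAG libraries were below all NEG libraries in 2.16% of the genes tested. The contrast helped to choose the members, so nothing is read from that count. The log2 fold changes of the share were −2.26 (SE 0.17) for KLK11, −1.76 (SE 0.14) for KLK10 and −0.51 (SE 0.21) for KLK7, with an all-gene median of 0.06.

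In AsPC-1 the labelled share separated the groups for KLK10 and not for KLK11. The share of KLK10 was 3.13 to 4.77% in NEG, with a median of 3.81%, and 0.901 to 2.50% in the 9 dTAG libraries with all reads, with a median of 1.35%. This was the only member of those tested with every dTAG library below every NEG library, against 1.61% of 11761 genes. Nothing is read from that count either. The log2 fold change was −1.34 (SE 0.14), where the all-gene median was −0.26. KLK11 had 4.35 to 6.48% in NEG and 2.84 to 5.08% in dTAG, with a log2 fold change of −0.43 (SE 0.11). All reads moved less in both lines: the log2 fold changes after dTAG were −0.15 to 0.06 over the 6 members in AsPC-1 and −0.35 to −0.03 in T3M-4, where KLK11 was lowest with −0.35 (SE 0.33).

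**Figure D3:**
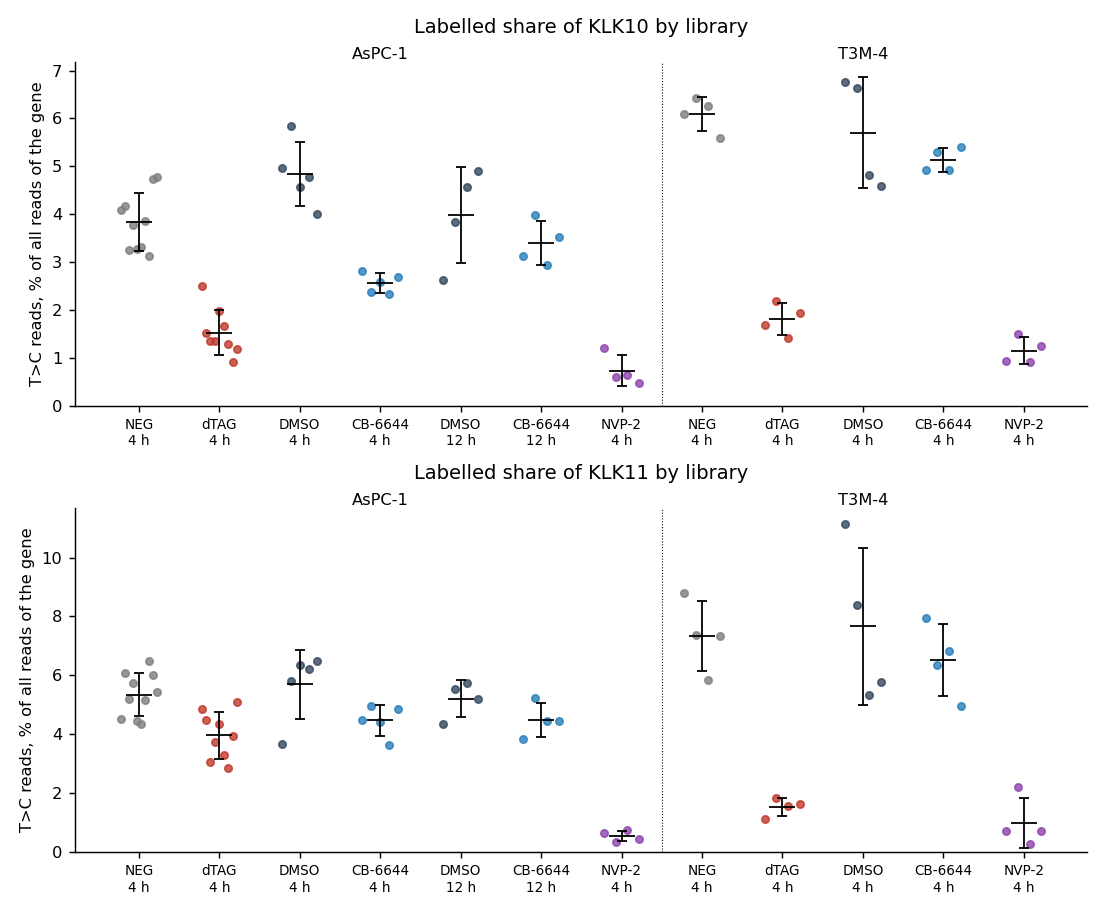
Labelled share of KLK10 and KLK11 (T>C reads as % of the gene's reads, vertical axis) in 12 groups (horizontal axis), 1 point per library, with a bar at the group mean and error bars of 1 SD. In T3M-4 both genes lie at 1.12 to 2.18% after dTAG and at 5.6 to 8.79% in NEG. In AsPC-1 only KLK10 separates dTAG from NEG.

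CB-6644 was compared with DMSO to ask whether the ATPase inhibitor acts on the same transcripts. T>C reads of KLK10 in AsPC-1 were 95.2, 96.2, 135, 198 and 119.8 CPM in DMSO and 53.3, 100.4, 88.8, 106 and 101 CPM after 4 h of CB-6644. The ranges overlapped, and the log2 fold change of −0.52 (SE 0.24) had an adjusted p of 0.979 by edgeR. CB-6644 libraries numbered 1, 2 and 2 in sets A, B and C, and DMSO libraries 2, 1 and 2. Within each set the treated libraries were below the controls, with 53.3 against 95.2 and 96.2 CPM in set A. In set B they were 100.4 and 88.8 against 135 CPM, and in set C 106 and 101 against 198 and 119.8 CPM. The share of all genes separated in this way was not counted, so nothing is read from it. The labelled share of KLK10 was 4.97, 5.84, 4.57, 4.79 and 4.01% in DMSO and 2.82, 2.38, 2.57, 2.34 and 2.68% after CB-6644, so all treated libraries were below all controls, as in 7.53% of 11649 genes. The share fell by 0.92 on the log2 scale (SE 0.11, edgeR adjusted p = 0.00264), to 0.529 of the DMSO level. A lower share was called in 3.28% of genes tested, and the all-gene median was −0.22. Over all genes together, the share was 8.23 to 8.90% after CB-6644 and 9.36 to 10.6% in DMSO. The test sets a gene's share against no change and does not adjust for that fall. KLK10 was the 1 of 4 tested members called. KLK11 had a share of 3.64 to 4.97% after CB-6644 and 3.66 to 6.49% in DMSO, with a log2 fold change of −0.35 (SE 0.15, adjusted p = 0.168).

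The other CB-6644 comparisons called no member on T>C reads or share. In T3M-4, T>C reads of KLK11 were 62.1, 65.5, 75.4 and 77.4 CPM in DMSO and 44.2, 27.8, 67.4 and 64.2 CPM after CB-6644, with a change of −0.45 on the log2 scale (SE 0.26) and an edgeR adjusted p of 0.994. KLK10 gave −0.40 (SE 0.29), KLK8 −0.44 (SE 0.36), KLK6 −1.15 (SE 0.56) and KLK7 0.08 (SE 0.39). The labelled share of KLK10 in T3M-4 was 4.92 to 5.40% after CB-6644 and 4.58 to 6.75% in DMSO, a log2 fold change of −0.15 (SE 0.15). After 12 h in AsPC-1, KLK11 had 74.3, 75.3, 92.9 and 92.1 CPM of T>C reads in DMSO and 50.1, 69.4, 56.9 and 59.6 CPM after CB-6644. These did not overlap, as in 1.49% of 12204 genes, but the log2 fold change of −0.49 (SE 0.18) had an edgeR adjusted p of 0.998. KLK10 at 12 h had 48.4, 83.8, 162 and 141 CPM in DMSO and 51.2, 60.2, 91.1 and 96.2 CPM after CB-6644, with a log2 fold change of −0.52 (SE 0.37). On T>C reads edgeR called 0 genes in each of the 3 comparisons (0%), with 482 of 11649, 569 of 13444 and 473 of 12204 genes at an unadjusted p under 0.05. DESeq2 called 0 members in each. On all reads no member was called after CB-6644 either, against 0.0127% of genes in T3M-4 (2 of 15761) and 0% in AsPC-1 at 4 h and 12 h, with 453, 267 and 325 genes at an unadjusted p under 0.05. The line difference of the CB-6644 response was 0.12 (SE 0.39) for KLK10 and −0.32 (SE 0.38) for KLK11, with 0 of 13963 genes called and 511 at an unadjusted p under 0.05.

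NVP-2 was included as an inhibitor of transcription elongation, and a lower labelled share was called in most genes in both lines. No spike-in was used, so T>C CPM show only a gene's place among the T>C reads that remained. The labels give each library a batch, without saying what it is, and put the AsPC-1 NVP-2 libraries in batch 2 and their 4 h DMSO controls in batch 1, so drug and batch cannot be told apart there. CB-6644 and NVP-2 share their DMSO libraries. On T>C CPM edgeR called no member in either line, while 30.5% of genes were called in AsPC-1 and 26.7% in T3M-4. In T3M-4, KLK10 had 83.9, 126, 255 and 289 CPM after NVP-2 against 88.2, 125, 122 and 119 CPM in DMSO, a log2 fold change of 0.78 (SE 0.38, adjusted p = 0.150). KLK11 had 32.1, 119, 41.9 and 95.5 CPM, spread around its DMSO libraries, with 0.10 (SE 0.41). KLK6 had 5.95, 13.2, 7.75 and 20 CPM after NVP-2 against 6.17, 3.53, 3.31 and 3.65 CPM in DMSO. Its log2 fold change of 1.54 (SE 0.53) had an adjusted p of 0.0533 by edgeR and of 0.00538 by DESeq2, and it was under 0.05 by edgeR without the NVP-2 library 1.1 (0.0361) or 2.1 (0.0392). KLK10 was called higher only without the NVP-2 library 1.1, at 0.99 with an edgeR adjusted p of 0.0427, and in experiment 2 alone. Scaled by all reads, as described next, KLK10 was called lower.

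Scaled by all reads in place of T>C reads, the all-gene median of the NVP-2 change was −3.26 in AsPC-1 and −3.09 in T3M-4, and every tested member was then lower, by −0.89 to −2.99 in AsPC-1 and by −1.49 to −3.98 in T3M-4. In T3M-4 the share of KLK8 was 0.476, 0.295, 0.301 and 0.302% after NVP-2 and 3.71, 3.81, 2.11 and 2.78% in DMSO. It fell by 3.18 on the log2 scale (SE 0.36, edgeR adjusted p = 2.14e-05). KLK7 fell by 4.16 (SE 1.02), KLK11 by 2.98 (SE 0.59) and KLK10 by 2.31 (SE 0.28). KLK6, with 0.638, 2.62, 0.661 and 1.88% after NVP-2 and 2.58 to 5.0% in DMSO, gave −1.21 (SE 0.59, adjusted p = 0.0687), and passed without the NVP-2 library 1.2 (adjusted p = 0.0244). A lower share was called in 91.2% of genes, so 4 of 5 members called is near the background.

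In AsPC-1 a lower share was called in 96.0% of genes and in 3 of 4 tested members. The share of KLK11 was 0.348 to 0.724% after NVP-2 and 3.66 to 6.49% in DMSO, a log2 fold change of −3.42 (SE 0.29), and that of KLK10 0.479 to 1.19% and 4.01 to 5.84%, a log2 fold change of −2.73 (SE 0.27). KLK6 gave −2.07 (SE 0.71, edgeR adjusted p = 0.0135), which was 0.0669 with the replicate number as a block. KLK8 was the exception, with 7.05, 1.51, 1.11 and 4.24% after NVP-2 and 0.269, 0, 0, 4.78 and 1.55% in DMSO, from at most 84 T>C reads in a library. Its log2 fold change was 1.01 (SE 0.89, adjusted p = 0.280), and 2.25 (adjusted p = 0.0307) without the DMSO library 2.1. With the set of libraries as a block, chosen after seeing the data, it was 4.99 (adjusted p = 0.00468). Its change in T>C CPM was 2.16 (SE 1.25, adjusted p = 0.214), and 3.76 (adjusted p = 0.00637) against the DMSO 12 h libraries, which were of the same batch but another duration. On all reads, KLK11 was 154, 179, 236 and 191 CPM after NVP-2 and 102, 119, 123, 140.2 and 132 CPM in DMSO. It rose by 0.62 (SE 0.17, edgeR adjusted p = 0.0408), where 11.8% of genes were called in either direction, and the change was 0.28 (adjusted p = 0.642) against the DMSO 12 h libraries. That call was lost in 8 of 9 fits that left out 1 library, without each DMSO library 1.1, 1.2, 1.3, 2.1 and 2.2 and each NVP-2 library 1.2, 2.1 and 2.2. In T3M-4 no member was called on all reads, against 5.16% of genes. The line difference of the NVP-2 response on T>C reads was 0.34 (SE 0.47) for KLK10 and −0.12 (SE 0.57) for KLK11, with 0.851% of 13159 genes called.

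**Figure D4:**
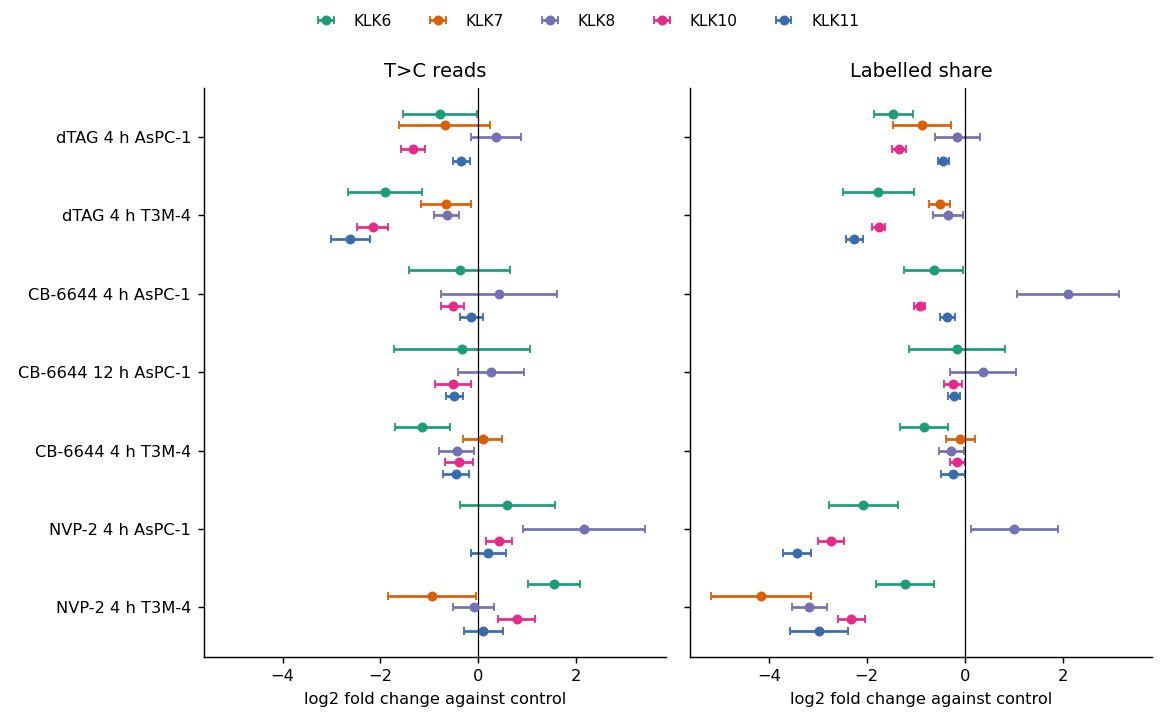
Log2 fold changes of T>C reads (left) and of the labelled share (right) on the horizontal axes for each tested member (by colour) in 7 comparisons (vertical axis), with bars of 1 SE. After dTAG, KLK10 and KLK11 lie at −2.16 and −2.62 on T>C reads in T3M-4 and at −1.33 and −0.35 in AsPC-1, and the share after NVP-2 lies below 0 for all tested members but KLK8 in AsPC-1.

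KLK10 and KLK11 varied together across T3M-4 libraries, which include the dTAG libraries on which the genes were chosen. Over the 16 T3M-4 libraries without NVP-2, Pearson's r of log2(T>C CPM + 1) between them was 0.962. The libraries share labelling and depth, and without the dTAG libraries r over the remaining 12 was 0.804. The T3M-4 libraries come from 2 experiments, whose controls did not overlap on all reads for KLK5, KLK7, KLK10 or KLK11. On T>C reads the control medians of experiments 2 and 1 were 129 and 83.6 CPM for KLK10. For KLK11 they were 76.4 and 63.8 CPM, without overlap of the libraries, and for KLK7 9.91 and 4.98 CPM. The libraries of KLK10 and KLK7 overlapped on T>C reads. How much of any r given here comes from that difference was not tested. KLK10 had r of 0.756 with KLK7, 0.664 with KLK8 and 0.363 with KLK6. Without dTAG these were 0.857, 0.544 and 0.159, so KLK7 was then the member most like KLK10. Among 8034 genes with a mean of at least 10 CPM, the genes most like KLK11 were AJUBA (0.973), LRRC8A (0.960) and LAMA3 (0.956), and those most like KLK10 were LRRC8A (0.970), GPRC5A (0.965) and KRT6A (0.963), a keratin of stratified epithelium. Without dTAG, a choice made after seeing the data, r with KLK11 was 0.850 for AJUBA, 0.894 for LRRC8A and 0.883 for LAMA3, and r with KLK10 was 0.897 for LRRC8A, 0.915 for GPRC5A and 0.868 for KRT6A. AJUBA encodes a LIM-domain adaptor protein and LAMA3 the alpha chain of laminin-332. For the other members the highest r was lower. The top gene was OSBP2 for KLK7 (0.924), LGALSL for KLK8 (0.883), ALAS1 for KLK6 (0.858) and MRPS14 for KLK5 (0.797), whose mean was 0.109 CPM.

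**Figure D5:**
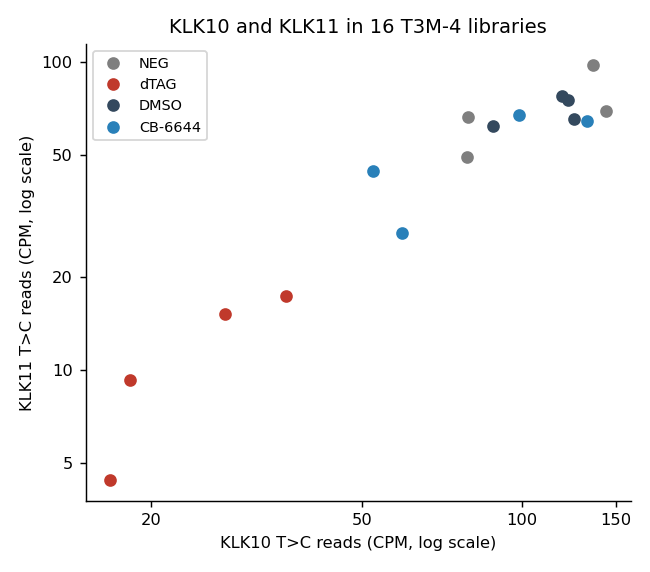
T>C reads of KLK10 (horizontal axis) against KLK11 (vertical axis) in 16 T3M-4 libraries, both in CPM on log scales, 1 point per library with the treatment by colour. The 4 dTAG libraries stand apart at 16.8 to 35.9 CPM of KLK10 and 4.39 to 17.4 CPM of KLK11.

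Most other genes of the KLK cluster did not pass the filter on low T>C counts. Of the 9 other KLK genes, KLK13 passed the filter in 3 T3M-4 comparisons and KLK12 in 1, and none passed in AsPC-1. KLK13, expressed in squamous epithelium, rose after NVP-2 in T3M-4 by 1.70 (SE 0.50, edgeR adjusted p = 0.0284), from 7.91 to 24.3 CPM on average, on the T>C scale relative to the T>C reads that remained, while its share gave −1.01 and was not called. After dTAG in T3M-4, KLK13 gave −1.69 on T>C reads and −1.31 on the share, and neither was called.

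Of 50 other genes within 500 kb of the cluster, 8 in AsPC-1 and 10 in T3M-4 were tested on T>C reads after dTAG, and 0 were called, against 2.40% and 0.834% of all genes, with list medians of −0.07 in both lines. At those rates a call among so few genes would be rare, so nothing is read from the 0.

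Genes of the kallikrein cascade were counted from lists of 12 inhibitors, 8 activators and partner proteases, 4 receptors and 12 substrates. The lists were chosen with earlier results of these data known, so calls on them after dTAG are a description and nothing is read from their number. After dTAG in T3M-4, 7 inhibitors, 5 proteases, 2 receptors and 7 substrates were tested on T>C reads. The single call was LAMB3, the beta chain of laminin-332, which fell by 1.54 on the log2 scale (SE 0.29, edgeR adjusted p = 0.0401), to 132 ± 45.6 CPM (SD, n = 4) from 382 CPM in NEG. On the labelled share, PI3 (elafin), an elastase inhibitor, fell by 1.59 (SE 0.23, edgeR adjusted p = 0.0330) and LAMB3 fell by 0.83 (SE 0.12, adjusted p = 0.0310), where 0.216% of all genes were called lower. The median on T>C reads was −0.49 for the inhibitors, −0.34 for the proteases, 0.29 for the receptors and −0.80 for the substrates. In AsPC-1, 5 inhibitors, 5 proteases, 2 receptors and 4 substrates were tested and 0 were called on T>C reads, with medians of −0.19, −0.37, 0.55 and −0.43. On the labelled share in AsPC-1, edgeR called 3 of the 5 inhibitors, 3 of the 5 proteases, 0 of the 2 receptors and 3 of the 4 substrates lower, where 40.0% of all genes were called lower. After 4 h of CB-6644 in AsPC-1, the share of LAMB3 fell by 0.90 (adjusted p = 0.00466) and that of PLAU, the urokinase plasminogen activator, fell by 0.57 (adjusted p = 0.0497), and no list gene was called on T>C reads in any CB-6644 comparison.

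After NVP-2, list genes moved both ways on T>C reads. In AsPC-1, SPINT2, an inhibitor of hepsin and matriptase, rose by 1.54 and PRSS3, mesotrypsin, by 1.15. PLAU fell by 3.68, F2RL1, which encodes the receptor PAR2, fell by 1.48 and LAMB3 fell by 2.49. In T3M-4, SPINT2 rose by 1.56, ST14, matriptase, by 2.47, CTSL, cathepsin L, by 1.23 and MMP9, a gelatinase, by 3.59. PRSS8, prostasin, fell by 4.21 and LAMB3 fell by 2.61. MMP9 and PRSS8 rest on very few reads. MMP9 had 0.0588 to 0.228 CPM of T>C reads in DMSO and 1.49 to 2.71 CPM after NVP-2. PRSS8 had 1.05 to 3.41 CPM in DMSO and 0 to 0.298 CPM after NVP-2. All are log2 changes relative to the T>C reads that remained, on which 30.5% of genes were called in AsPC-1 and 26.7% in T3M-4. On the labelled share the genes that rose were called lower, SPINT2 by −1.87 and PRSS3 by −2.73 in AsPC-1, and SPINT2 by −1.75, ST14 by −0.96 and CTSL by −2.04 in T3M-4, while MMP9 was not called. A lower share was called in most genes of both lines, as given above.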

How the data were processed

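SLAM-seq libraries were 3′ end libraries sequenced single-end. Alignment and counting were done by the authors with slamdunk (default settings, hg38) on 3′UTR exons of GENCODE v44, whose counts they added up for each gene. What they deposited are unnormalized integer counts, with T>C reads and all reads in separate tables for each line. How many T>C reads arise without labelling is not known here, since no library without 4sU was used. The tables held 18 empty columns. For the AsPC-1 dTAG library 3.1 the column of all reads repeated T>C counts of another library and was not used, which leaves 61 libraries with all reads and 9 dTAG libraries for the labelled share. Counts were tested with edgeR 4.0.16 (filterByExpr, TMM, glmQLFit, glmQLFTest; R 4.3.3) and each fit held only the libraries of its contrast. P-values were adjusted by Benjamini-Hochberg over all genes tested, at a threshold of 0.05. The share was tested on T>C counts with the natural log of all reads (+ 0.5) as offset, and line differences as interaction terms. SE was taken as log2 fold change over √F. CPM were TMM-scaled over all libraries. DESeq2 1.42.0 was an alternative. The scripts were tested on simulated data. Sequences and motifs came from RefSeq promoters read in Python 3.11.15, and 1 promoter stretch is not reported here.

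The members and the gene lists were chosen with earlier results of these data known. Named genes were the members, other KLK genes that passed the filter, list genes called in a comparison (at most 3 per direction, by p) and the 3 genes most like each member. Same-numbered libraries deviated together (r over genes above 0.1 in every pair) in dTAG of both lines (lowest r 0.242 in AsPC-1 and 0.380 in T3M-4), CB-6644 in T3M-4 (0.225) and CB-6644 at 12 h (0.119). They did not for CB-6644 at 4 h in AsPC-1 (−0.035) or NVP-2 (−0.149 in AsPC-1 and 0.078 in T3M-4). The control that correlated best had the same number in 4 of 4 dTAG pairs in T3M-4 and 5 of 10 in AsPC-1. For CB-6644 it did in 1 of 4 pairs in T3M-4 and in 2 of 4 at 12 h. Libraries of 1 experiment or set can also deviate together, so whether the numbers pair libraries was not settled.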

Additional observations from a re-analysis of the deposited data

Results flagged for a closer look

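In groups of 4 to 10 libraries, 20 of 138 sets of values had 1 library far from the others (14.5%, where chance alone gives about 1 in 20). Of these, 9 were KLK5, whose T>C count was 0 to 30 in a library, in multiples of 3.

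For KLK5 in AsPC-1 the CB-6644 12 h library 1 had 0.142 CPM and a share of 5.0%, from a T>C count of 3, with the other 3 libraries at 0. In T3M-4 the CB-6644 library 2.1 had 0.458 CPM and 4.35%, the dTAG library 1.1 had 0.129 CPM and 3.03% and the NVP-2 library 2.1 had 5.82 CPM and 3.62%, each with the other libraries at 0, and the DMSO library 1.2 had a share of 0.0% below 3 libraries above 0.

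For KLK6 the T3M-4 DMSO library 1.1 was high, at 6.17 CPM and 5.0%. For KLK7 the AsPC-1 CB-6644 4 h library 1.3 had a share of 8.96% and the AsPC-1 dTAG library 1.4 one of 18.5%. For KLK8 the AsPC-1 CB-6644 4 h library 1.3 had a share of 32.7% (66 of 202 reads), the CB-6644 12 h library 4 one of 7.89%, the DMSO 12 h library 2 a level of 1.69 CPM, the T3M-4 dTAG library 2.2 one of 29.7 CPM and the T3M-4 NVP-2 library 1.1 a share of 0.476%.

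For KLK10 the T3M-4 DMSO library 1.1 was low, at 88.2 CPM. For KLK11 the AsPC-1 DMSO library 1.1 had a low share, at 3.66%, and it was also the lowest of its group in T>C reads, at 33.9 CPM.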

How the results depend on the processing

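Depth limits KLK5 throughout and KLK6, KLK7 and KLK8 in AsPC-1. Of the counts of called members under other settings, 103 stayed within 1.5 times their value. After NVP-2 in AsPC-1, the T>C count of called members of 0 became 3 scaled by all reads, 1 (KLK8) with the set of libraries as a block, an alternative chosen after seeing the data, and 1 (KLK8) with DMSO 12 h as control. The all-reads count of 1 became 0 without the low-count filter, 0 with the replicate block, 0 with DMSO 12 h and 2 with the set block, and 0 to 1 when each library was left out. In T3M-4 the T>C count of 0 became 1 with DESeq2, 1 with RLE size factors, 4 scaled by all reads, 1 in experiment 2 alone and 0 to 2 with 1 library left out. The NVP-2 line difference had 1 called member with the set block.

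Log2 changes on T>C reads that changed sign were those of KLK8 after CB-6644 in AsPC-1 (−0.77 in experiment 2), KLK11 there (0.22 in experiment 1), KLK7 after CB-6644 in T3M-4 (−0.016 with the replicate block, −0.60 in experiment 1), and, after NVP-2, KLK6, KLK8, KLK10 and KLK11 in AsPC-1 scaled by all reads (−2.53, −0.89, −2.76 and −2.99), KLK11 in AsPC-1 with DMSO 12 h (−0.015), KLK6, KLK10 and KLK11 in T3M-4 scaled by all reads (−1.49, −2.36 and −2.77), KLK8 in T3M-4 in experiment 2 (0.29), KLK11 in T3M-4 without the filter (−0.010), with the replicate block (−0.090) and in experiment 2 (−0.10), and the line difference of KLK11 scaled by all reads (0.22). Scaling by all reads moves every gene by the fall in labelled share. For the other changes of sign and of count the cause was not tested. None of the reported values concerned was called, but scaled by all reads those of KLK6, KLK10 and KLK11 in AsPC-1 and of KLK10 and KLK11 in T3M-4 were.

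With 1 library left out, the ranges that crossed 0 were −0.17 to 0.29 (KLK10, line difference of CB-6644), −0.37 to 0.0040 (KLK11 share, CB-6644 in T3M-4), −0.20 to 0.37, −0.28 to 0.31 and −0.49 to 0.27 (KLK11, NVP-2 in AsPC-1, in T3M-4 and line difference), −0.84 to 0.41 and −1.13 to 0.18 (KLK6, CB-6644 at 12 h and 4 h in AsPC-1), −0.27 to 1.18 (KLK6, NVP-2 in AsPC-1), −0.35 to 0.28 (KLK7, CB-6644 in T3M-4), −0.13 to 1.88 (KLK8, CB-6644 at 4 h in AsPC-1) and −0.48 to 0.13 (KLK8, NVP-2 in T3M-4). The call on the share of KLK10 after CB-6644 kept an adjusted p of 0.00193 to 0.0172. With the replicate number as a block that p was 0.0203, the KLK11 change after dTAG in T3M-4 was −2.73 and its line difference −2.35. Besides the calls named above and in the report, the replicate block changed no call. In AsPC-1 each library correlated best with its own number in 5 of 10 dTAG pairs.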
